A study of Mus musculus with 14 samples.

Results

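The zinc finger transcripts described here are those of mouse genes whose symbol is Zfp followed by a number. They were selected on their measured RNA amount: a gene was taken when its deposited input value was 10 or more in each of the 4 input libraries of cultured muscle stem cells (MuSCs). Of 324 Zfp genes among the 14837 genes of the input table, 227 met that rule, and 10369 genes of all kinds met the same floor. Because the input values chose the members, their presence in the input is not a result. The members nearest the floor were Zfp943 and Zfp953, each with a smallest value of 10, and Zfp970 with 10.32. Zfp62 (9.83), Zfp608 (9.75) and Zfp930 (9.75) fell just outside. One member, Zfp125, had no match in RefSeq, so 226 members could be placed on the genome and compared with the peak lists.

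Zfp is a naming series, not a single protein family. Most of the encoded proteins carry tandem C2H2 fingers, each of which holds a zinc ion and contacts a few bases of DNA, and many of these also carry a KRAB domain. The KRAB domain recruits the corepressor Trim28 (also called KAP1), which brings the histone methyltransferase Setdb1 and silences retroelements, imprinted regions and other targets. KRAB zinc finger genes arose by local duplication and lie in arrays along the chromosomes, with near-identical neighbours. A minority of Zfp proteins bind RNA, take part in ribosome assembly or act as ubiquitin or SUMO ligases. N6-methyladenosine (m6A) is a base modification of mRNA that is written by the Mettl3 and Mettl14 complex and favours long exons and the region around the stop codon. Igf2bp3 and Lin28a are RNA-binding proteins of embryonic and regenerating tissue. Igf2bp3 is described as a reader that stabilises m6A-modified transcripts, and Lin28a is best known for blocking the maturation of let-7 microRNAs.

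The series compared control MuSCs with Lin28a+ MuSCs, both labelled by genotype only (Control and Lin28a positive) and both taken from mouse skeletal muscle and grown in DMEM with fetal bovine serum on Matrigel. The study describes its Lin28a+ MuSCs as cells sorted by flow cytometry from Lin28a-CreERT2; LSL-tdTomato mice, in which the Lin28a promoter drives the inducible Cre and the red reporter marks the cells that have expressed it. The ages of the animals and how many were pooled are not given in the sources used here. Of the 14 libraries, 4 were input RNA, 4 m6A immunoprecipitates (m6A-RIP), 4 Igf2bp3-RIP and 2 Lin28a-RIP, with 2 libraries for each group and assay. Lin28a-RIP was made from Lin28a+ MuSCs only, so it has no control group here. The labels do not say that the 2 libraries of a group came from separate animals or cultures, so p-values measure the spread between these libraries, which may be technical.

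Summed input values were 4842915 to 6220960 a library, and the RIP tables held 21350962 to 31830638 counts a library for m6A, 9215355 to 34142094 for Igf2bp3 and 33908110 to 36610494 for Lin28a. The 2 Lin28a+ columns of the input table are headed as m6A libraries, and were taken as input because they stand in the table that the input samples name. Their m6A-RIP over input values, given further on, were close to those in control. If the heading rather than the table were right, every RNA comparison would set m6A-RIP against input. All 8 myogenic markers were present, with Myod1 at 4651 to 4728 CPM in the 4 input libraries (CPM is the count scaled to a library of 1000000, with edgeR's TMM factors unless stated). Of these 8, 3 were higher in Lin28a+ MuSCs (Myog 1.86, Cdh15 0.77 and Pax7 0.36 on the log2 scale) and 3 lower (Vcam1 -1.93, Myf5 -1.21 and Des -0.53) in both edgeR and DESeq2. That was 37.5% each way, against 28.1% and 28.7% of all genes tested in edgeR and 13.1% and 13.8% in DESeq2. Of the fibro-adipogenic list 3 of 5 genes were in the table, Pdgfra stood at 0.24 CPM or less, and the list summed, without TMM factors, to 144 and 153 CPM in control and to 77.2 in both Lin28a+ libraries. Its tested genes moved in opposite directions: Gsn was lower (log2 -1.21), whereas Ly6a rose from 3.93 and 4.59 CPM to 13.5 and 12.5 CPM (1.61). One endothelial marker of 4 was listed, Pecam1, at 0.4 to 0.5 CPM, and 3 macrophage markers of 4 summed, without TMM factors, to 0.8 to 2.3 CPM. Of the pericyte or smooth muscle list 3 of 4 were listed. Without TMM factors they summed to 5314 and 5398 CPM in the control libraries and 7485 and 7495 CPM in the Lin28a+ libraries. These sums were almost wholly Acta2, an actin that cultured myoblasts also make. Rgs5, a pericyte marker on the same list, fell from 2.44 and 2.09 CPM to 0.20 CPM in both Lin28a+ libraries in edgeR, a call that DESeq2 did not make. The part of Gsn-, Ly6a-, Rgs5-, Acta2- or Myog-expressing cells in the Zfp results was not tested; Myog, a differentiation factor, stood at 766 and 775 CPM in the control libraries and 2769 and 2809 CPM in the Lin28a+ libraries.

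Members were spread over the genome unevenly, with 61 on chromosome 7 and 28 on chromosome 17. To show the promoters behind the RNA results, the windows of 250 bases before to 50 bases after the start of 6 members follow, taken from RefSeq (GRCm38.p6) and written 5′ to 3′ on the gene's strand. Zfp53, Zfp760, Zfp942 and Zfp944 belong to a chromosome 17 run of neighbours in which most members were lower in Lin28a+ MuSCs, and Zfp764 and Zfp956 to runs on chromosomes 7 and 6 in which 4 of 10 and 4 of 6 members were higher. Their windows lie at chr17:21488738-21489037, plus strand (Zfp53), chr17:21707491-21707790, plus strand (Zfp760), chr17:21962415-21962714, minus strand (Zfp942), chr17:22361351-22361650, minus strand (Zfp944), chr7:127406773-127407072, minus strand (Zfp764) and chr6:47953140-47953439, plus strand (Zfp956). Capitals mark the GC box GGGCGG, the core letters of an Sp1-type site, searched on both strands.
Zfp53: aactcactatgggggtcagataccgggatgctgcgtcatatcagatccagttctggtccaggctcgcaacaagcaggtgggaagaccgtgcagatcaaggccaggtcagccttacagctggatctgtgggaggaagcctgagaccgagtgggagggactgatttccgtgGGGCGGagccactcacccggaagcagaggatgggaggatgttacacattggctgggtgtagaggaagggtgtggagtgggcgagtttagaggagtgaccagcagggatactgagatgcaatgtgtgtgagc
Zfp760: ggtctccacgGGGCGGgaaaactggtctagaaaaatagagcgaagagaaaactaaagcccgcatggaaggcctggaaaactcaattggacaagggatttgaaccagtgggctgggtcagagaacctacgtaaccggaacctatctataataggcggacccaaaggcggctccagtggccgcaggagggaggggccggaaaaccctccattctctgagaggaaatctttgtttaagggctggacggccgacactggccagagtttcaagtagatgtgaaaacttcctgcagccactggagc
Zfp942: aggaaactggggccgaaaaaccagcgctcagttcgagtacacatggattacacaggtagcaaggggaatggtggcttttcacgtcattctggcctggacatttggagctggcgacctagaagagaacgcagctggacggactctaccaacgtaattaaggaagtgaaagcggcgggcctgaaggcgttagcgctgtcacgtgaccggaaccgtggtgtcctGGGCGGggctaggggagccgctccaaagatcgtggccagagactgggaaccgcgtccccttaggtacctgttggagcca
Zfp944: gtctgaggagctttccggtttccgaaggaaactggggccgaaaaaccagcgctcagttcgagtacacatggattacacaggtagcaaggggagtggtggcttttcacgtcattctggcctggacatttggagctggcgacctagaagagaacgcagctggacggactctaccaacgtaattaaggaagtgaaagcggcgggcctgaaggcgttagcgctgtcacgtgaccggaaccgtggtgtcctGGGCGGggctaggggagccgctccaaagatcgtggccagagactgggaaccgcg
Zfp764: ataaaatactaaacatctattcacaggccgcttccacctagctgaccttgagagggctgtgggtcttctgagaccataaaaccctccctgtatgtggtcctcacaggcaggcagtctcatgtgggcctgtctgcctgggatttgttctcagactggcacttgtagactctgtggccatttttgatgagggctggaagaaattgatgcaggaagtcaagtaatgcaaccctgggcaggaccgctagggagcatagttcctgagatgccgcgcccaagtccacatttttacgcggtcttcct
Zfp956: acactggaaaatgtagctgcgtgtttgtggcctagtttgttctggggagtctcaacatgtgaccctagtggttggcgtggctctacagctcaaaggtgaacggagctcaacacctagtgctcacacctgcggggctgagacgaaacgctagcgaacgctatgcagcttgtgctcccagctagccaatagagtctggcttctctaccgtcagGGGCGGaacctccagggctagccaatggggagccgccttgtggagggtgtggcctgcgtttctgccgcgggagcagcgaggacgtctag

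The windows of Zfp942 and Zfp944, neighbours in the same run, were the same at 274 of 275 aligned bases (99.6%) when shifted by 25 bases, whereas every other printed pair matched at 28.2% to 34.6% of bases without gaps. The window of Zfp942 also overlaps that of Zfp943, which starts on the opposite strand, over 194 bases. Transcript sequences were not compared here, and if close copies also share transcribed sequence the counting may divide reads between them, so the separate values of such pairs are uncertain. The GC box occurred once in 5 of the printed windows and not in that of Zfp764. It was present in 35.7% of all 32851 promoter windows of the table, in 51.1% of the 186 members with a window and in 68.9% of 7977 other genes that met the floor. Among members it was found in 18 of 32 that were higher in Lin28a+ MuSCs (56.2%), 27 of 46 that were lower (58.7%) and 50 of 108 not called (46.3%). Other genes held it in 66.5% of those with higher and 71.6% of those with lower RNA. Member windows held a median of 16 CG pairs, against 22 in the other genes at the floor; the median was 21 in members with higher RNA, 13.5 in those with lower RNA and 15 in those not called. In other genes it was 21 with higher and 24 with lower RNA. These are descriptions of letters in a window and say nothing about factor binding.

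The first comparison asked which Zfp transcripts differed in amount between Lin28a+ and control MuSCs. In the edgeR quasi-likelihood test at an adjusted p of 0.05, 40 of the 227 members were higher in Lin28a+ MuSCs (17.6%, against 28.1% of all 11317 genes tested), 55 were lower (24.2%, against 28.7%) and 132 did not pass. At like input level, other genes were higher in 21.7% and lower in 23.7%. The median member log2 fold change was -0.06 (all genes tested 0.01), with a range from -1.51 to 1.95, and 2 called members were more than 2-fold up (0.881%, against 4.51% of all genes tested) and 11 more than 2-fold down (4.85%, against 8.73%). The CPM values of the groups did not overlap for any of the 95 called members. With 2 libraries a group a call largely implies this, so it is no further support, and the share over all genes was not computed. DESeq2 gave a median standard error of 0.43 for the member fold changes, against 0.11 in edgeR and 0.13 from the replicate spread itself. It called 22 members, 9 higher (3.96%, against 13.1% of all genes tested) and 13 lower (5.73%, against 13.8%). In bulk RNA a lower value from fewer expressing cells and one from less RNA per cell cannot be told apart.

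Zfp764 and Zfp599 had the highest fold changes. Zfp764 stood at 2.35 and 1.86 CPM in the control libraries and at 9.37 and 7.46 CPM in the Lin28a+ libraries (log2 fold change 1.95 ± 0.20 SE, adjusted p = 0.000536, edgeR). Zfp599 stood at 2.81 and 2.09 CPM in the control libraries and 7.08 and 7.16 CPM in the Lin28a+ libraries (1.54 ± 0.16 SE, adjusted p = 0.000542, edgeR). Both rested on small counts with wide gaps between the groups, and both were also called by DESeq2. Zfp334 rose from 35.6 and 28.9 CPM to 63.7 and 57.1 CPM, a log2 difference of 0.92. Zfp395 (5.66 and 4.99 CPM in control, 10.4 and 10.3 CPM in Lin28a+) and Zfp13 (4.57 and 4.54 CPM, then 8.45 and 8.06 CPM) had log2 differences of 0.96 and 0.87 in edgeR but did not pass in DESeq2 (adjusted p = 0.118 and 0.226).

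At the other end, Zfp97 stood at 13.4 and 12.9 CPM in the control libraries and 4.86 and 4.38 CPM in the Lin28a+ libraries (log2 fold change -1.51 ± 0.10 SE, adjusted p = 0.000114, edgeR). It passed in both tools. Zfp970 (6.27 and 5.46 CPM in control, 2.03 and 2.22 CPM in Lin28a+, log2 -1.45), Zfp760 (9.03 and 7.56, then 2.75 and 3.88 CPM, -1.31), Zfp984 (6.74 and 7.07, then 3.18 and 2.35 CPM, -1.30) and Zfp619 (9.37 and 8.69, then 3.73 and 4.29 CPM, -1.16) followed. These 4 were each lower in both Lin28a+ libraries than in either control library and passed in edgeR, while in DESeq2 their adjusted p-values were 0.0874, 0.0604, 0.0919 and 0.0743. Zfp365 had a log2 difference of -1.14, from 27.2 and 26.1 CPM to 12.5 and 11.5 CPM, and passed in both tools.

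**Figure D1:**
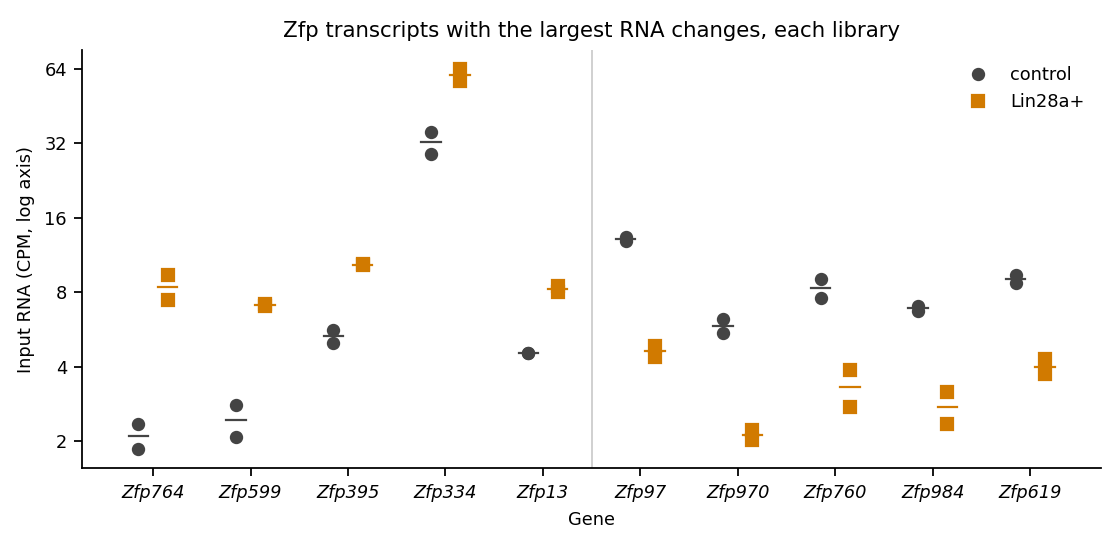
Input CPM (log axis) of the 5 members with the largest called RNA differences in each direction, 1 point per library (circles control, squares Lin28a+) and a line at each group's mean. By the rule that chose them, the 2 groups do not overlap for any of the 10 genes. Zfp764 has the widest gap upwards and Zfp97 downwards.

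Members were also set out by their neighbours. A run was defined as at least 4 members with starts no more than 500000 bases apart, which gave 14 runs holding 90 of the 226 placed members, and 94 members had no other member within that distance. The run on chromosome 17 from Zfp51 to Zfp944 (chr17:21450374-22361428, GRCm38) held 9 members, none higher and 8 lower, with a median log2 difference of -0.89 and a range from -1.31 to -0.40. Zfp53 stood at 9.37 and 8.69 CPM in the control libraries and 4.91 and 5.42 CPM in the Lin28a+ libraries, and Zfp948 at 15.5 and 17.4 CPM and then 9.24 and 8.59 CPM. Zfp942 went from 4.06 and 4.99 CPM to 2.16 and 2.25 CPM. In these 3 and in 5 further members, the 8 that were called, both Lin28a+ values lay under both control values. With 2 libraries a group a call largely implies this. In the remaining one, Zfp944, the Lin28a+ values were 8.45 and 10.6 CPM against 10.1 and 14.6 CPM in control. Its groups overlapped and its adjusted p was 0.166 in edgeR. Zfp51 was the least certain of the 8, with 7.66 and 3.48 CPM in the Lin28a+ libraries and an adjusted p of 0.0464 in edgeR. None of the 8 was among the members that DESeq2 called.

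The run on chromosome 6 from Zfp398 to Zfp746 (chr6:47835633-48086986) held 6 members, of which 4 were higher and none lower, with a median log2 difference of 0.60. Zfp212 (20.8 and 22.6 CPM in control, 32.9 and 36.5 CPM in Lin28a+), Zfp282, Zfp777 and Zfp956 were the 4. The run on chromosome 7 from Zfp553 to Zfp646 (chr7:127233061-127885996) held 10 members, of which 4 were higher (Zfp553, Zfp764, Zfp768 and Zfp771) and none lower, with a median of 0.34. Of these calls DESeq2 made those of Zfp212 and Zfp282 in the chromosome 6 run and of Zfp764 and Zfp768 in the chromosome 7 run. Over all genes tested, 28.1% were higher and 28.7% lower in edgeR, beside which 4 of 10 is not far removed. These runs were picked out after their values were seen, and whether neighbours share reads was not tested, so no test of a run was made. With a gap of 250000 bases the chromosome 17 run held the same 9 members, and with 1000000 bases it extended to 12, of which 8 were lower and 2 higher. Without the chromosome 17 run, 87 of the remaining 218 members were called in either direction, beside 28.1% higher and 28.7% lower of all genes tested, and their median was -0.04.

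**Figure D2:**
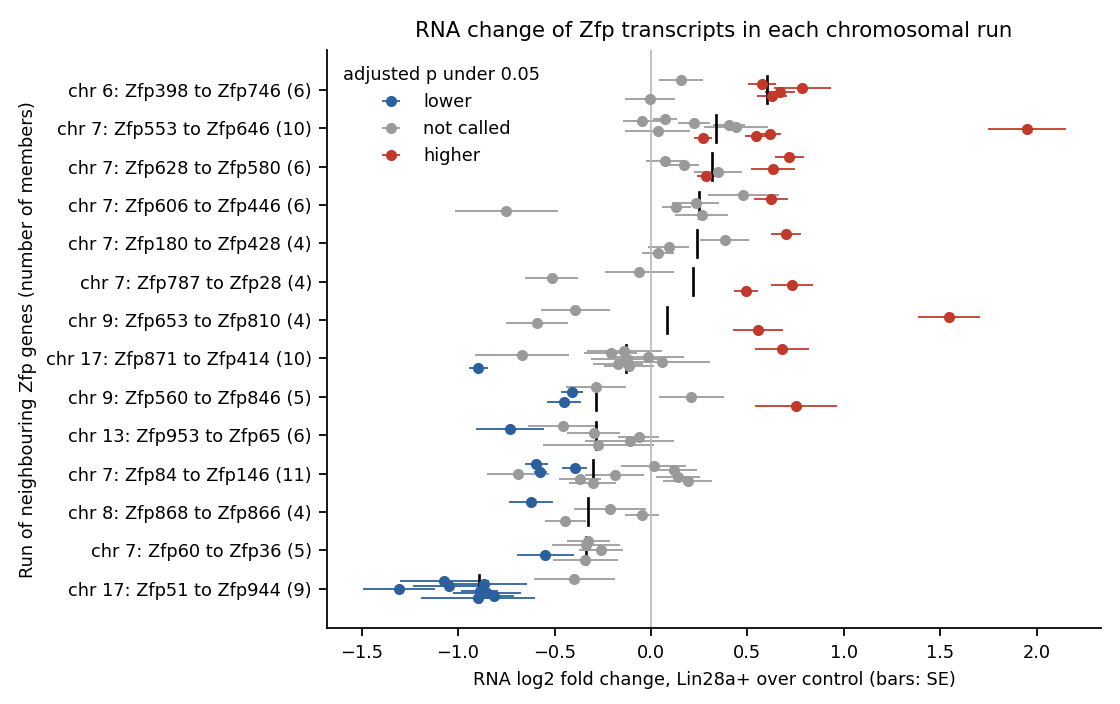
RNA log2 fold change (Lin28a+ over control) of each member of the 14 chromosomal runs, 1 point per gene with its SE, coloured by call, and a black bar at the median of the run. The chromosome 17 run from Zfp51 lies wholly below 0 (-1.31 to -0.40), and the chromosome 6 run from Zfp398 has the highest median, 0.60.

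Members with a known role outside sequence-specific repression were described by lists. Of 9 members with roles on RNA or ribosomes, 4 were higher (44.4%) and 1 lower (11.1%), against 28.1% and 28.7% of all genes tested, with a median log2 difference of 0.15. The higher ones were Zfp346 (double-stranded RNA binding, 0.54), Zfp593 (a nucleolar ribosome biogenesis factor, 0.41), Zfp622 (a factor of late large-subunit assembly, 0.33) and Zfp207 (a spindle and splicing factor, 0.21), none of which DESeq2 called. The lower one was Zfp106, an RNA-binding protein needed for the upkeep of muscle and its motor innervation, which passed in both tools and stood at 130 and 134 CPM in the control libraries and 69.1 and 70.9 CPM in the Lin28a+ libraries. Zfp36 (tristetraprolin), which promotes the decay of AU-rich mRNAs, was at 41.9 and 34.0 CPM and then 30.4 and 29.7 CPM and missed the threshold (adjusted p = 0.0541, edgeR). Both ligases, Zfp91 (ubiquitin, -0.44) and Zfp451 (SUMO, -0.50), were lower in edgeR, and DESeq2 called Zfp91 but not Zfp451.

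Of 13 Zfp genes listed as mesenchymal or progenitor transcription factors, Zfp423 and Zfp467 are no members and were under the filter on low counts, 1 of the other 11 was higher (Zfp219, 0.67) and 5 were lower (9.09% and 45.5%, against 28.1% and 28.7% of all genes tested). The lower ones were Zfp281 (a repressor in pluripotent cells, -1.11), Zfp148 (-0.70), Zfp462 (-0.50), Zfp503 (-0.49) and Zfp704 (-0.20). DESeq2 called Zfp148, Zfp281 and Zfp503 but not Zfp219, Zfp462 or Zfp704. Zfp281 stood at 34.2 and 36.4 CPM in the control libraries and 19.9 and 12.7 CPM in the Lin28a+ libraries. Of the repressors of imprinted regions and retroelements, Zfp445 (which keeps imprints with Zfp57, -0.71) and Zfp568 (which silences a placental Igf2 transcript, -0.57) were lower, while Zfp57 (0.17, adjusted p = 0.713) and Zfp809 (which silences murine leukaemia viruses, -0.59, adjusted p = 0.151) did not pass in edgeR. DESeq2 called Zfp568 but not Zfp445. Zfp708 and Zfp932 were not tested and Zfp459 was not in the table.

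The partners of KRAB zinc finger proteins are no members but complete the pathway. Of 21 tested corepressor genes 8 were higher and 8 lower (38.1% each, against 28.1% and 28.7% of all genes tested) and 5 not called, with a median of 0.08. DESeq2 kept 7 of the 16 calls: Trim28, Uhrf1, Hdac1, Dnmt1, Chd3, Atrx and Mphosph8. Trim28 itself stood at 83.0 and 83.8 CPM in the control libraries and 154 and 150 CPM in the Lin28a+ libraries (log2 0.87), and Uhrf1 (1.21), Hdac1 (0.64), Dnmt1 (0.57), Daxx (0.53), Chd3 (0.52), Suv39h1 (0.31) and Setdb1 (0.27, adjusted p = 0.0495, edgeR) were also higher. The lower genes included Atrx (-1.42) and the HUSH subunit Mphosph8 (-1.11). The list held large differences in both directions while its median was near that of all genes.

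The second comparison asked how the m6A-RIP signal of the members differed between the cells. The m6A table lists counts under transcripts, often in several rows for 1 transcript and with no position or peak number, so what part of the transcript a row stands for is not known. The rows of a gene were summed. Of the 161 members with a row, 51 were higher in Lin28a+ MuSCs (31.7%, against 32.5% of the 9413 genes tested), 61 were lower (37.9%, against 33.7%) and 49 did not pass, with a median of -0.05 (all genes 0.01). At like input level the shares in other genes were 30.2% and 33.6%. The highest called were Zfp764 (1.94), Zfp580 (1.10), Zfp334 (0.93), Zfp444 (0.93) and Zfp358 (0.92), and the lowest Zfp53 (-1.72), Zfp65 (-1.30), Zfp281 (-1.21), Zfp365 (-1.21) and Zfp638 (-1.19). Zfp53 had the largest fall: its m6A-RIP signal was 529 and 553 CPM in the control libraries and 159 and 169 CPM in the Lin28a+ libraries, and each of its 4 rows had a log2 difference between -1.80 and -1.53. Zfp638, a nuclear protein of adipocyte differentiation and silencing of unintegrated DNA, went from 65.1 and 62.4 CPM to 25.8 and 29.8 CPM.

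Row by row, 115 of 422 member rows were higher (27.3%, against 30.0% of all 18881 rows) and 116 lower (27.5%, against 31.8%). In 6 of the 115 members with several rows (5.22%, against 6.13% of all 4192 such genes at the floor) rows were called in both directions: Zfp143, Zfp326, Zfp513, Zfp574, Zfp622 and Zfp74. In Zfp143, an activator of small nuclear RNA and many other promoters, row 1 fell from 78.7 and 80.7 CPM to 40.5 and 35.8 CPM while row 3 rose from 13.5 and 13.0 CPM to 16.3 and 16.7 CPM. In Zfp622 row 1 fell by 0.91 on the log2 scale while rows 2 and 3 rose by 0.27 and 0.28. Zfp74 had rows at -1.09 and 0.56. In Zfp326, a subunit of a complex that links RNA polymerase II to splicing, row 5 rose by 0.90 while rows 1 and 6 fell by 0.56 and 0.59. The sum of such a gene combines rows that moved in opposite directions.

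An m6A-RIP difference can follow from the amount of RNA, so it was also tested relative to input, as the interaction of cells and assay. Of 161 members 3 were relatively higher (1.86%, against 3.04% of the 8063 genes tested) and 4 relatively lower (2.48%, against 4.12%), with a median of -0.03 in members and in all genes tested. Most members therefore had no detectable difference of m6A-RIP beyond that of their RNA with 2 libraries a group. Zfp970 was the highest (1.63, adjusted p = 0.00169, edgeR): its RNA fell while its m6A-RIP signal stood at 51.8 and 49.1 CPM in the control libraries and 58.6 and 56.1 CPM in the Lin28a+ libraries. Zfp397 (0.91) and Zfp867 (0.82) had the same pattern of lower RNA and higher m6A-RIP.

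Of the relatively lower members, Zfp599 had the largest difference (-2.07, adjusted p = 0.00421, edgeR). Its RNA rose while its m6A-RIP signal fell from 17.5 and 15.8 CPM to 13.6 and 10.2 CPM. Zfp53 (-0.92, adjusted p = 0.0163, edgeR) fell in both but further in m6A-RIP. This call was lost without control input replicate 2 (-0.86), Lin28a+ input library a (-0.98) or Lin28a+ input library b (-0.87). Zfp143 (-0.79) had no called RNA difference, and its call was lost without Lin28a+ input library a (-0.71). Zfp622 (-0.48) had higher RNA and a lower m6A-RIP sum, carried by the first of its 3 rows. By contrast Zfp764 moved alike in both assays, with a difference of -0.03 relative to input.

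**Figure D3:**
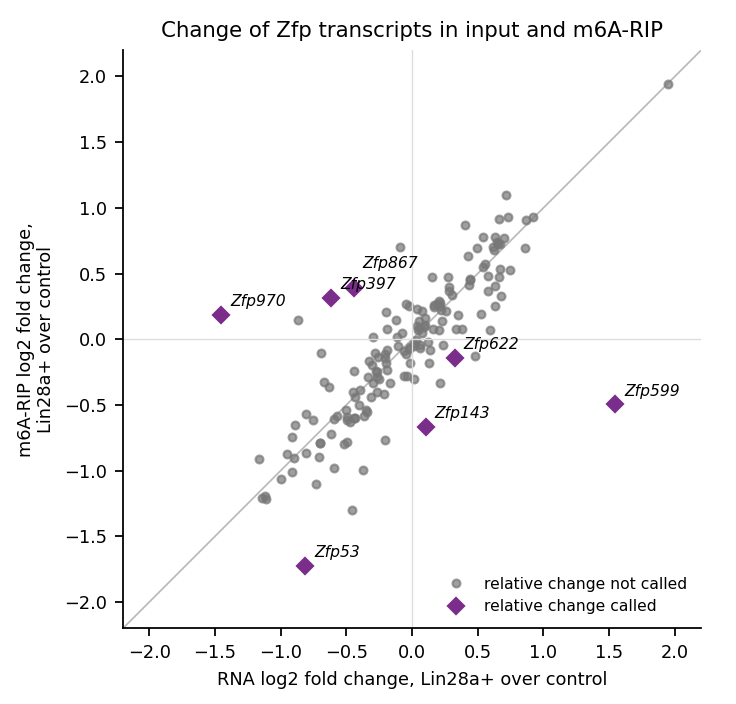
RNA log2 fold change (x axis) against m6A-RIP log2 fold change (y axis), Lin28a+ over control, for the 161 members with both, with the diagonal of equal change. Most members lie near the diagonal; the 7 members called relative to input are named, with Zfp970, Zfp397 and Zfp867 above it and Zfp599, Zfp53, Zfp143 and Zfp622 below it.

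The third comparison asked how strongly the members were recovered in m6A-RIP over input within each cell group. In control MuSCs 95 of 161 members were higher in m6A-RIP than in input (59.0%, against 45.9% of the 8057 genes tested) and 39 lower (24.2%, against 43.0%), with a median log2 difference of 0.67. In Lin28a+ MuSCs 94 were higher (58.4%, against 46.1% of 8049) and 36 lower (22.4%, against 42.0%), with a median of 0.69. Other genes at like input level were higher in 51.2% and 50.9% and lower in 35.1% and 33.6%. On the scale log2(m6A-RIP CPM + 1) minus log2(input CPM + 1), the member median was 1.26 and 1.22 in the control pair and 1.19 and 1.17 in the Lin28a+ pair, and that of other genes 0.43 to 0.45. Against other genes in the same bin of input level (10 bins of equal gene number, bin 1 lowest), members lay 0.46 above in control and 0.45 above in Lin28a+ MuSCs. Zinc finger genes named Zbtb, Zscan, Zkscan or Zik were higher than input in 22 of 37 in each group (59.5%) and lower in 12 (32.4%) in control and 10 (27.0%) in Lin28a+ MuSCs, with medians of 0.59 and 0.42.

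The number of rows moved with this excess. Members with a row had 2.62 rows on average, against 1.97 in other genes at like input level, and 71.4% of them had more than 1 row, against 51.5%. When the mean count per row was used in place of the sum, the difference of members from other genes of the same bin was -0.018 in both groups, with 80 of 161 members above their bin's median in control and 78 in Lin28a+ MuSCs. Among the 46 members with a single row, the difference was 0.11 in control and 0.18 in Lin28a+ MuSCs; 12 were higher (26.1%) and 21 lower (45.7%) than input in control, and 12 (26.1%) and 20 (43.5%) in Lin28a+ MuSCs. Other genes with a single row at like input level were higher in 31.9% and lower in 50.8% in control, and in 31.5% and 49.3% in Lin28a+ MuSCs. Members were listed with more m6A rows a gene than other genes of like RNA level, at about the same m6A-RIP signal a row. Whether longer exons, the number of transcripts a gene or the assignment of rows to transcripts moved with this was not tested.

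The members with the highest m6A-RIP over input in control were Zfp53 (5.31), Zfp426 (4.04), Zfp513 (3.91), Zfp326 (3.72) and Zfp784 (3.10). The lowest were Zfp568 (-3.78), Zfp148 (-3.53), Zfp11 (-2.89), Zfp91 (-2.66) and Zfp580 (-2.54). In Lin28a+ MuSCs the 5 highest were Zfp53 (4.43), Zfp513 (4.34), Zfp970 (4.19), Zfp326 (4.07) and Zfp426 (3.53), and the 4 lowest were again Zfp568, Zfp148, Zfp11 and Zfp91. The span from Zfp568 to Zfp53 was thus over 9 log2 units in control. For Zfp53 and Zfp426 the m6A-RIP signal was large beside a small input value, 529 and 553 CPM against 9.37 and 8.69 CPM for Zfp53. The Igf2bp3-RIP peaks assigned to Zfp53 all lay before its RefSeq gene, by 10950 to 12904 bases, and 3 of the 6 assigned to Zfp426 lay outside its gene, by 2503 to 12370 bases. The m6A rows carry no positions, so whether their reads also lie outside these genes was not analysed here.

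**Figure D4:**
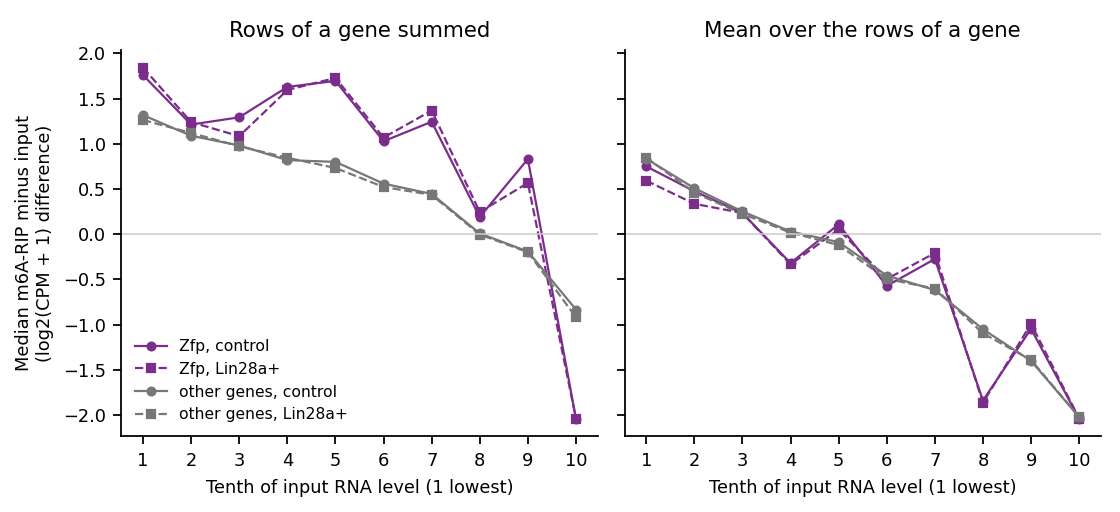
Median m6A-RIP over input, as log2(CPM + 1) differences, in each of 10 bins of input level (1 lowest) for Zfp members and other genes, control with solid and Lin28a+ with dashed lines, rows of a gene summed (left) or averaged (right). With summed rows the members lie above the other genes in bins 1 to 9 in both groups, and with averaged rows they lie on either side; bin 10 holds 1 member.

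The last comparison asked which members were listed with a peak of Igf2bp3 or Lin28a. Of the 226 placed members 84 had at least 1 Igf2bp3-RIP peak (37.2%, Wilson 95% interval 31.1% to 43.6%), against 35.7% of all genes at the floor and 31.8% of other genes at like input level. A Lin28a-RIP peak was listed for 55 (24.3%, 19.2% to 30.3%), against 27.7% of all and 24.3% at like level. An m6A row was listed for 161 (71.2%, 65.0% to 76.7%), against 70.6% of all and 64.0% at like level. Both proteins were listed for 43 members (19.0%, against 19.3% at like level), Igf2bp3 without Lin28a for 41 (18.1%, interval 13.7% to 23.7%, against 12.5%), Lin28a without Igf2bp3 for 12 (5.31%, against 5.05%), and all 3 tables for 40 (17.7%, against 15.7%). The intervals cover counting error only, and the like-level shares lay inside them for Igf2bp3 and for Lin28a but under them for an m6A row and for Igf2bp3 without Lin28a. By bin of input level the Igf2bp3 share of members was 39.1% against 19.8% of other genes in bin 1. It was 15.1% against 28.5% in bin 2 and 66.7% against 36.0% in bin 4. The member share was the higher in bins 1, 3, 4, 6, 7 and 9 and the lower in bins 2, 5, 8 and 10, so it did not lie to one side. With only peaks of at least 100 counts in every library, the Igf2bp3 share was 33.2% of members and 25.6% of other genes at like input level. No interval was computed under this rule, so the statement on intervals above holds for all peaks only.

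**Figure D5:**
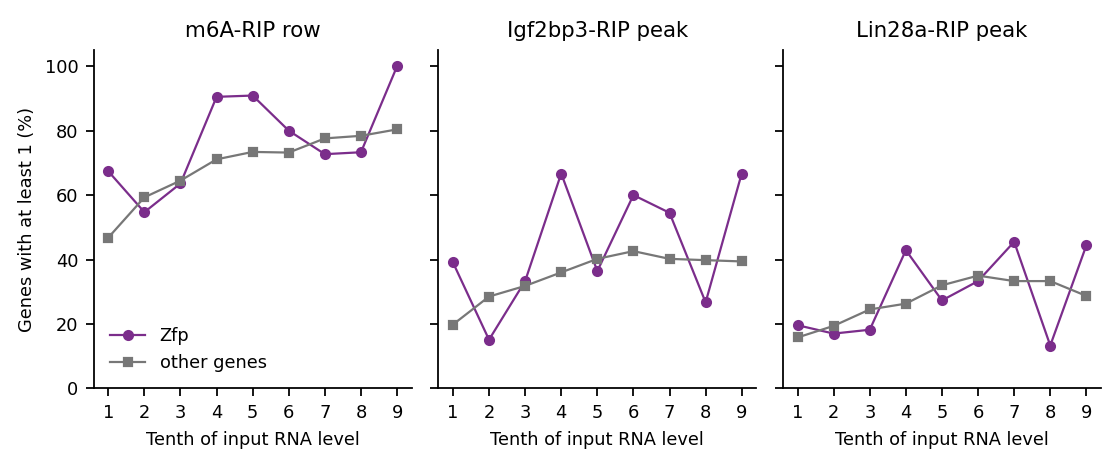
Percent of genes with at least 1 m6A-RIP row, Igf2bp3-RIP peak or Lin28a-RIP peak, in bins 1 to 9 of input level (1 lowest), for Zfp members and other genes; bin 10, with 1 member, is not drawn. The member lines cross those of the other genes in all 3 panels, and bins 4 and 9 hold the highest Igf2bp3 shares, 66.7% each.

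Of the 84 members with an Igf2bp3 peak, 42 were lower in RNA in Lin28a+ MuSCs (50.0%) and 6 higher (7.14%), with a median log2 difference of -0.40; of the 142 without a peak 13 were lower (9.15%) and 34 higher (23.9%), with a median of 0.11. Of the other genes at the floor, 45.9% of those with an Igf2bp3 peak were lower and 16.3% higher, and 17.4% and 37.2% of those without. Of the 55 members with a Lin28a peak 28 were lower (50.9%) and 1 higher (1.82%), with a median of -0.34, against 42.4% and 21.1% of other genes with one. Of the 171 without, 27 were lower (15.8%) and 39 higher (22.8%), against 21.9% and 33.1% of other genes. Of the 161 members with an m6A row 39 were lower (24.2%) and 32 higher (19.9%), against 30.3% and 29.9% of other genes with one. Of the 65 without, 16 were lower (24.6%) and 8 higher (12.3%), against 21.0% and 29.4% of other genes. The difference between these splits in members and in other genes was not tested, nor was the part of transcript length, and Lin28a peaks were called in Lin28a+ MuSCs only, so a peak list and an RNA amount from the same cells are set side by side.

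The 84 members held 289 Igf2bp3 peaks, with a median of 3 and at most 15 each, and 3.44 a gene against 4.57 in other genes at like level. Zfp462 and Zfp704 had 15 each, Zfp106 had 11, and Zfp451 and Zfp516, a brown fat regulator, had 10 each. The 55 members held 155 Lin28a peaks, led by Zfp638 with 14, Zfp462 with 11, Zfp106 and Zfp704 with 10 each and Zfp143, Zfp426 and Zfp516 with 5 each. All 5 Lin28a peaks assigned to Zfp426 lay outside its RefSeq gene, by 2702 to 14044 bases, and the 2 strongest of Zfp143 lay 5159 and 7582 bases before its gene. Member Igf2bp3 peaks had a median width of 398 bases, against 271 for all peaks, and 91% lay on the assigned RefSeq gene, against 80.6%. Of the Igf2bp3 peaks 42.9% overlapped a Lin28a peak by at least 1 base (60.4% of all peaks), and of the Lin28a peaks 71.6% overlapped an Igf2bp3 peak (52.4% of all). Of the peaks that could be placed, 45.1% of Igf2bp3 peaks and 46.5% of Lin28a peaks fell in the last 20% of the gene's span, against 43.7% and 33.7% of all peaks.

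None of the 289 member peaks passed the Igf2bp3-RIP comparison of Lin28a+ with control in edgeR, where 24 of 19465 peaks (0.123%) did, and none passed in DESeq2. Both fits took no account of replicate numbers. A fit with the replicate number as a block did call member peaks, and is described in the last paragraph. The values here are from the fit without the block. At an unadjusted p under 0.05 there were 10 member peaks, 8 up and 2 down (3.46%); of all peaks 1017 passed it, 395 up and 622 down (5.22%). The median log2 difference was 0.09 in members and -0.01 in all peaks. The highest was a peak of Zfp65 (chr13:67707679-67707908), at 2.75 and 2.92 CPM in the control libraries and 7.63 and 6.07 CPM in the Lin28a+ libraries (log2 1.26 ± 0.32 SE, adjusted p = 0.45, edgeR), and the lowest one of Zfp970 (-1.12 ± 0.35 SE). The Zfp970 peak stood at 4.62 and 3.58 CPM in the control libraries and then at 1.83 and 1.89 CPM, and like its RNA it was low in both Lin28a+ libraries.

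Zfp106 shows how the assays lie beside each other in 1 member. Its input RNA (log2 -0.91) and its m6A-RIP sum (614 and 633 CPM, then 309 and 310 CPM, -1.01) fell together, and the difference between them was -0.11 (adjusted p = 0.497, edgeR). Its strongest Igf2bp3 peak, also the strongest of any member (chr2:120533585-120535853), was at 924 and 782 CPM in the control libraries and 710 and 584 CPM in the Lin28a+ libraries. The difference did not pass in the fit without the block (log2 -0.40). This peak overlapped a Lin28a peak of 325 and 316 CPM, scaled by library totals without TMM factors. Zfp334 was the counterpart with higher RNA and m6A-RIP. Its single Igf2bp3 peak stood at 15.2 and 12.7 CPM and then 31.7 and 24.3 CPM (1.01), and did not pass the adjusted threshold in the fit without the block.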

How the data were processed

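MuSC input RNA, m6A-RIP, Igf2bp3-RIP and Lin28a-RIP were sequenced by the authors, and the labels and methods name FastQC, HISAT2 2.0.4, MACS2 1.4.3 and DESeq2. The methods name GRCh38 and the processing notes also mm10; the peak coordinates matched mouse genes of GRCm38. The counting program is not given in the sources used here. The deposited input table holds estimated counts with decimals, like a mean over transcripts, which were rounded. The deposited RIP tables hold whole-number counts for each row (peaks with positions for Igf2bp3 and Lin28a, transcript rows without positions for m6A). The Lin28a+ input columns carry m6A names and both Lin28a+ m6A columns carry 1 name, so these libraries were called a and b. Input values are not per length, so bins of input level and m6A-RIP over input between genes also carry differences of transcript length. If input values are means over transcripts, these measures may also carry the number of transcripts a gene, which was not tested. Members with an m6A row had a median of 4 RefSeq transcripts, against 3 in other genes with one (means 5.7 and 5.24).

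Differences were tested with edgeR 4.0.16 in R 4.3.3 (quasi-likelihood test, TMM factors, low-count filter, Benjamini-Hochberg adjustment over all features, threshold 0.05). A run on simulated counts gave every feature the same spread and changed few features, unlike these data, so no support is drawn from it. DESeq2 1.42.0, other floors, filters, libraries left out and pseudocounts were alternatives; the main pseudocount was 1 CPM. Like-level shares weight other genes to the members' spread over 10 bins of mean input. The named genes were the 5 called members with the largest difference each way without overlap of the groups, the 5 with most peaks, and the listed members of the role lists. The members, lists, runs and printed promoters were chosen with earlier results of these data known. Protein sequences, peak sequences and Lin28a itself were not analysed here. A symbol matched RefSeq for 97.7% of input genes.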

Additional observations from a re-analysis of the deposited data

How the results depend on the processing

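Counts of called members and the binding shares mostly held, in 64 of 68 alternatives. A count held if it stayed within 1.5 times the main count, and a share if it stayed inside the Wilson interval of the main member share. DESeq2 called 22 members for RNA against 95. With a floor of 20, 78 of 180 members were called for RNA in either direction, where 28.1% of all 11317 genes tested were higher and 28.7% lower. The restriction to genes with 1 m6A row and the mean per row were chosen after seeing the data: they left 33 called over input in control cells and 32 in Lin28a+ cells, and the mean per row turned the difference from other genes to -0.018 in both groups. Leaving out 1 library at a time gave 65 to 79 called members for RNA, 103 to 106 for m6A-RIP, 5 to 8 relative to input, 119 to 137 over input in control, 120 to 131 in Lin28a+ MuSCs and 0 for Igf2bp3. Each such fit leaves 1 library in a group, which is assumed to vary like those of the other groups, so these ranges are weak evidence of stability. Among the genes named for the size of their difference, 394 alternative values kept their call and 10 lost it. Calls of role-list members that DESeq2 lost stand beside those lists.

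For Igf2bp3-RIP the replicate block called 19 member peaks, 13 up and 6 down (6.57%; of all peaks 766 up and 1222 down, 10.2%), against 0 without it. Across 19465 peaks the difference of replicate 2 from replicate 1 correlated between the groups (r = 0.703, across peaks, which are not replicates); the cause was not tested, and with 2 pairs the numbers were not taken to pair the libraries. No paired analysis was possible for input and m6A-RIP because the Lin28a+ columns carry no usable replicate numbers. With 2 libraries a group, small differences of low members were not detectable at this depth.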
